A study of Mus musculus with 14 samples.

Results

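MyoD and Myogenin are transcription factors that drive skeletal muscle differentiation, and their sites were compared here inside the same kind of cell. The sites were the peaks of 1 MyoD list and 1 Myogenin list from control C2C12 cells, a mouse myoblast line, harvested after 2 days in low-serum differentiation medium. Each immunoprecipitation used 10 µg of antibody and each library 100 ng of recovered DNA and 18 PCR cycles, and each list was called by the authors against IgG. After mitochondrial peaks were dropped, the MyoD list held 71878 sites and the Myogenin list 115000, together 186878 of the 517016 sites in the 10 lists of the series. A site was called shared when a MyoD and a Myogenin peak overlapped by at least 1 bp, and otherwise MyoD-only or Myogenin-only. The remaining lists of the series came from TDP-43 and serine 2-phosphorylated RNA polymerase II (Pol II S2P) in control cells, and from all 4 antibodies after knockdown of the long noncoding RNA Myolinc. Whether control cells were transfected with a control siRNA is not stated, and peaks measure no expression, so the myotube state of the cells could not be checked against markers.

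Both proteins are basic helix-loop-helix factors of the family that also holds Myf5 and Myf6. They pair with E proteins such as the product of Tcf3 and contact E-boxes, short DNA words of the form CANNTG, with CAGCTG and CAGGTG well known among those in muscle enhancers. MyoD is present in myoblasts before differentiation and opens muscle loci, whereas Myogenin is switched on as cells differentiate and acts at many late muscle genes. As background from the field, the proteins are regarded as binding overlapping sets of regions.

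With 1 library per factor there was no replicate, so no test across libraries was possible and the sites of a list are not replicates. With the highest 1% of scores set aside, all peak scores of each list (100%) were whole multiples of 1 step. That step was taken as 1 sequenced tag for every site, including the highest ones, which were not checked. If scores were scaled to 10000000 tags, which no label or header states, the libraries held 3378215 tags (MyoD) and 3400139 tags (Myogenin). The lists were nevertheless unlike. MyoD sites had a median of 8 tags (middle range 7 to 10, extremes 4 and 80), whereas Myogenin sites had a median of 15 (11 to 20, extremes 6 and 112). Under the same unstated scaling, MyoD sites held 18.8% of their library's tags and Myogenin sites 54.3%. MyoD peaks were 231 bp wide and covered 16.6 Mb, and Myogenin peaks were 219 bp wide and covered 25.2 Mb. Intervals below are 95% Wilson intervals on shares and exact Poisson intervals on tags, and they cover counting error only because PCR copies are not independent molecules.

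The DNA under a few promoter peaks is shown so that the sites behind the comparison can be read directly. Each line gives, in the direction of transcription, the bases before the gene's start that lie under a peak of either factor, from RefSeq on GRCm38.p6, the build named mm10. Capitals mark the E-boxes CAGCTG and CAGGTG, the latter also as CACCTG on the other strand. The first set comes from promoters where a MyoD and a Myogenin peak overlapped, and part of each stretch lies under 1 of the peaks alone. Kcnj2 encodes an inward-rectifier potassium channel of muscle (chr11:111066052-111066163, plus strand), Lamtor2 a lysosomal adaptor of mTORC1 signalling (chr3:88552952-88553135, minus strand) and Myh13 the extraocular myosin heavy chain (chr11:67326853-67327102, plus strand). Lamtor2 was among the best-scoring shared promoters, and Kcnj2 and Myh13 are shown because they are muscle genes, Myh13 having been chosen after its values were seen.
Kcnj2: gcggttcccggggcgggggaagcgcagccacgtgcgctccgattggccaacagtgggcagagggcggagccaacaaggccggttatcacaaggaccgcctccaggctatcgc
Lamtor2: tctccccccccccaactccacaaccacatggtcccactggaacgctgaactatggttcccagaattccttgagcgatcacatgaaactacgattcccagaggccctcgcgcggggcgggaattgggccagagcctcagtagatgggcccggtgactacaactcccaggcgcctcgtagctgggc
Myh13: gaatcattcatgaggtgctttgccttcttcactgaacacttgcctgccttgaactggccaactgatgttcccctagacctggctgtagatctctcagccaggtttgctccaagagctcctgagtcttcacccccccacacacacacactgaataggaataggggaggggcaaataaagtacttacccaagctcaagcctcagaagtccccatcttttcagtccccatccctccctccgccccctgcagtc
None of these stretches held CAGCTG or CAGGTG on either strand, which says only that the letters are not in these windows.

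The next set lay under a peak of 1 factor alone and comes from sarcomere genes. Tnnt1, slow skeletal troponin T, had a MyoD peak (chr7:4516083-4516225, minus strand). Ttn, the giant sarcomere protein titin (chr2:76982558-76982770, minus strand), and Mybph, a myosin-binding protein (chr1:134193264-134193417, plus strand), had a Myogenin peak.
Tnnt1: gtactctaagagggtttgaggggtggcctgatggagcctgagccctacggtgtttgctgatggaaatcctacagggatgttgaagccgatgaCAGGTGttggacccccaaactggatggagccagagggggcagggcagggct
Ttn: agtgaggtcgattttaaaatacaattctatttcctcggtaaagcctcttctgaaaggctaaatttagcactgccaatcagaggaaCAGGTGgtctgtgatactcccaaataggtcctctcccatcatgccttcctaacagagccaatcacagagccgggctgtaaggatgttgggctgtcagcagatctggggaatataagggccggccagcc
Mybph: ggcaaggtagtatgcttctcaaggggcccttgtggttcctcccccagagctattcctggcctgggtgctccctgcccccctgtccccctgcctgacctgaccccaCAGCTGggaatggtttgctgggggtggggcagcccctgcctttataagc
Each of these stretches held 1 such E-box, but the stretches shown are examples and do not stand for their sets. Among those not shown, the stretches of Wdr47 and H4c12, met by both factors, held 1 each. That of Mybpc2, a sarcomere gene with a Myogenin peak, held 0. The shares over all promoters are given with the E-box counts further below.

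The sites of the MyoD and Myogenin lists seldom overlapped. Of the MyoD sites, 1852 overlapped a Myogenin site, which was 2.58% of the MyoD list (interval 2.46 to 2.69%) and 1.61% of the Myogenin list (1.54 to 1.68%), and each pair was one-to-one. That left 70026 MyoD-only and 113148 Myogenin-only sites. The overlap that list density alone would give was not computed. Myogenin centres were 1.31 times as dense at 0 to 50 bp from MyoD centres as at 20000 to 50000 bp. When the Myogenin list was shortened to its 71878 best sites by score, 1158 were shared, or 1.61% of either list (1.52 to 1.71%). The shortened list ended at 13 tags, where 7259 sites were tied and the 1097 deposited earliest were kept. Across chromosomes 1 to 19 and X, the shared part of the MyoD list ranged from 1.65% on chromosome 7 to 3.27% on chromosome 17.

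Shared pairs overlapped by a median of 119 bp and their centres lay a median of 106 bp apart, so many met off-centre. Just inside the limit, 156 pairs overlapped by 1 to 20 bp. Just outside it, 127 MyoD sites lay within 19 bp of a Myogenin site without touching it. A wider circle took in most of the list: 11.9% of MyoD sites had a Myogenin site within 1000 bp, 41.1% within 5000 bp and 63.5% within 10000 bp. The median gap of a MyoD-only site to the nearest Myogenin site was 6963 bp. What list density alone would give at these distances was not computed.

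Around MyoD peak centres the density of Myogenin centres rose little. It was 63.2 per Mb at 0 to 50 bp (interval 57.5 to 69.2), 59.7 at 50 to 100 bp, 51.1 at 150 to 200 bp and 48.1 at 20000 to 50000 bp. The nearest bin was thus 1.31 times the distant one, and beyond 200 bp every bin lay within 1.00 to 1.04 times it. The same measure in other control lists ran far higher. TDP-43 replicate 1 centres around those of TDP-43 replicate 2, a pair with the same antibody, reached 91.5 times the distant density at 0 to 50 bp, and TDP-43 replicate 1 around Pol II S2P reached 86.2 times. Pol II S2P centres reached 3.80 times around MyoD sites and 4.38 times around Myogenin sites. Both ratios lay above the 1.31 between the myogenic factors. Each ratio is relative to the distant density of its own pair, so the 10715 sites of the Pol II S2P list do not by themselves lower it. The highest sites of TDP-43 replicates 1 and 2 and of Pol II S2P held 2828, 3670 and 5235 tags, against 80 (MyoD) and 112 (Myogenin). The part of such sites in these ratios was not tested. No replicate of MyoD or Myogenin exists to show how far such lists repeat themselves. The nearest lists of the same antibodies came from cells after Myolinc knockdown and had narrower peaks. The knockdown MyoD list met 2.75% of shared and 1.75% of MyoD-only sites. The knockdown Myogenin list met 0.378% of shared and 0.354% of Myogenin-only sites.

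**Figure D1:**
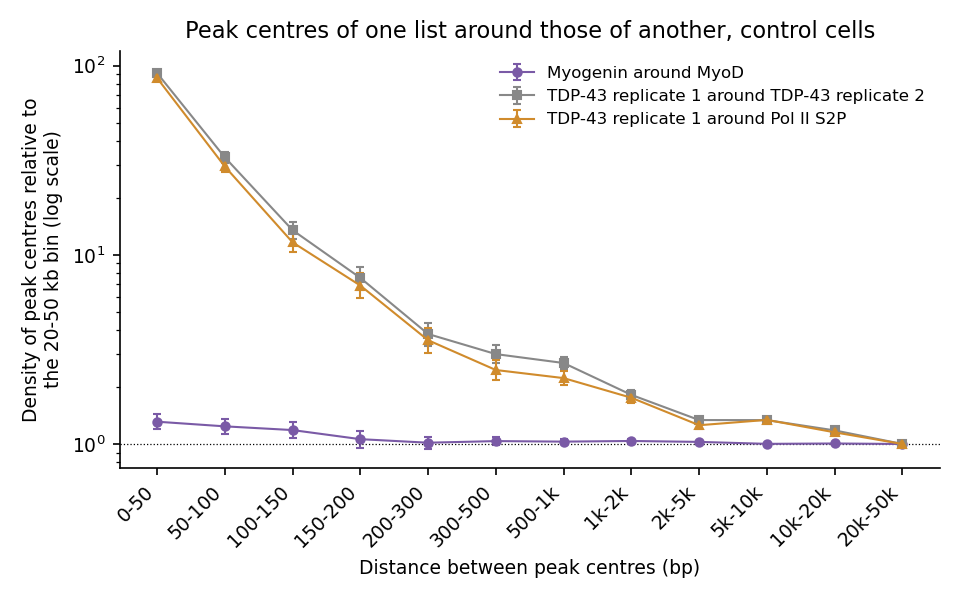
Density of peak centres of 1 list around those of another by distance, divided by the density at 20 to 50 kb (log scale), with exact 95% Poisson intervals. Myogenin around MyoD starts at 1.31 and is near 1 beyond 200 bp, while the TDP-43 and Pol II S2P pairs start at 91.5 and 86.2.

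The overlap changed little with the height of the peaks. The shared part of the MyoD list was 2.47% at 4 to 6 tags (interval 2.23 to 2.75%), 2.31% at 10 to 11 tags and 3.06% at 15 to 80 tags (2.51 to 3.73%). In the Myogenin list it was 1.69% at 6 to 9 tags (1.51 to 1.90%), 1.53% at 16 to 18 and 1.86% at 26 to 112 (1.60 to 2.16%). The intervals of the lowest and highest bins overlapped in both lists. Shared and factor-only sites had the same median of 8 tags in the MyoD list and of 15 in the Myogenin list. Across the 1852 shared pairs, the tags of the MyoD peak and of the Myogenin peak had a Spearman rho of 0.0958, given as a description of peaks from 2 libraries.

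The strongest sites were mostly different ones, as were the sites of the full lists. Of the best 1000 sites of each list 3 were shared, of the best 10000 33 (0.330%, interval 0.235 to 0.463%) and of the best 30000 242 (0.807%). Shorter lists hold fewer sites to meet, so these lower shares do not by themselves set strong sites apart. The share that list length alone would give was not computed. For comparison, TDP-43 replicates 2 and 1 shared 97 of their best 1000 (9.70%) and 2101 of their best 10000 (21.0%).

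**Figure D2:**
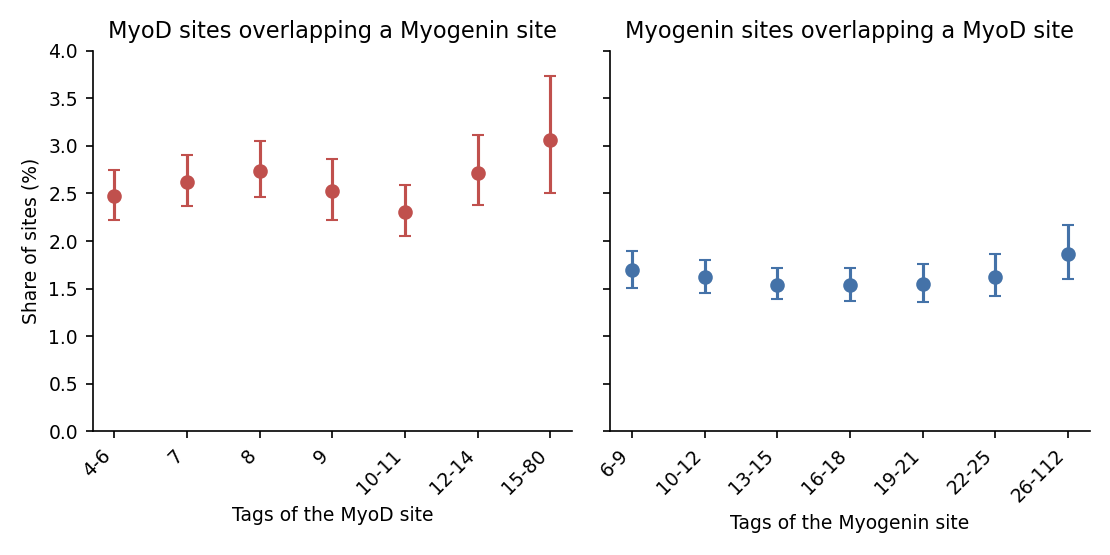
Share of MyoD sites that overlap a Myogenin site (left) and of Myogenin sites that overlap a MyoD site (right), by tags in the site, with 95% Wilson intervals. The MyoD shares stay between 2.31% and 3.06% and the Myogenin shares between 1.53% and 1.86% over the whole range of tags.

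Shared sites were ranked by the poorer of their ranks in the lists. The best by that rule lay in a satellite repeat in an intron on chromosome X, named for 4930468A15Rik (a claudin-like gene, Cldn34d in RefSeq). It held 42 tags in the MyoD peak (76598854 to 76599084) and 112 in the Myogenin peak (76598878 to 76599096), ranks 5 and 1 of their lists, and it was also met by other control lists. The highest MyoD site of all, with 80 tags, was a shared site too, but the rule did not place it among the best 10. The next lay between genes beside Slc39a10, a zinc transporter, with 18 and 35 tags, and in an intron of Erdr1 on chromosome Y, with 17 and 40. The other 7 of the best 10 were named for Gm10400, Nfx1, Gm41, Rnf112, Ntm, Cdh18 and Tmtc4 and held 14 to 22 MyoD tags and 27 to 32 Myogenin tags. All 10 lay in introns or between genes, and none was named for a gene of the muscle lists. The best MyoD-only sites were named for Gm6194 (79 tags, between genes), Limd1 (58 tags, a 3′ UTR) and Meis1 (36 tags, between genes). The best Myogenin-only sites lay in introns of Sfi1 (68 tags), Ttc19 (64) and Htr7 (61).

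By annotation class the lists were alike. Promoter sites, called promoter-TSS by the authors, made up 1.43% of the MyoD list (interval 1.35 to 1.52%) and 1.44% of the Myogenin list (1.37 to 1.51%), and exons 1.85% and 1.84%. MyoD sites lay somewhat more often in introns (40.2% against 38.1%) and less often between genes (54.2% against 56.3%), and these intervals did not overlap. Shortened to equal length, the Myogenin list held 1.27% promoter sites (1.19 to 1.35%), an interval that met that of MyoD only at its edge.

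Shared sites lay nearer to genes than factor-only sites. Promoters made up 2.32% of shared sites (43 sites, interval 1.73 to 3.11%), against 1.41% of MyoD-only (1.32 to 1.50%) and 1.43% of Myogenin-only sites (1.36 to 1.50%). Exons made up 2.75% of them (2.10 to 3.60%) against 1.82% of each factor-only set. The 5′ UTR class held 7 shared sites (0.378%, 0.183 to 0.778%) against 0.0871% and 0.103%. At equal length the promoter share of shared sites was 1.81% (21 sites, 1.19 to 2.76%), so its interval took in the 1.42% of MyoD-only and the 1.26% of Myogenin-only sites. The exon share was 2.59% (1.82 to 3.67%) and met the intervals of 1.84% and 1.86%. The difference was therefore seen in the full lists and was not detectable at equal length.

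**Figure D3:**
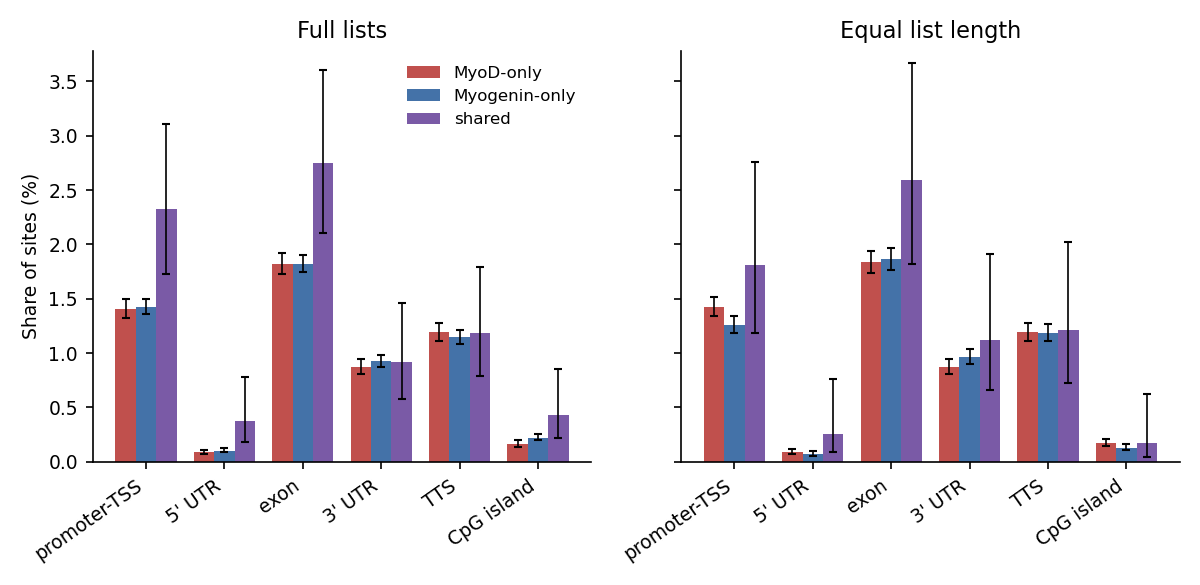
Share of MyoD-only, Myogenin-only and shared sites in the gene-near annotation classes, in the full lists (left) and at equal list length (right), with 95% Wilson intervals. Shared sites stand at 2.32% promoters and 2.75% exons in the full lists and at 1.81% and 2.59% at equal length, where the intervals meet those of the factor-only sets.

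Distances to the start of the named gene gave the same picture. The median was 47652 bp for MyoD sites, 54287 bp for Myogenin sites and 44578 bp for shared sites. Within 1 kb of a start lay 4.05% of shared sites (75 sites, interval 3.24 to 5.05%), against 2.37% of MyoD-only and 2.44% of Myogenin-only sites. With lists of equal length the shares were 2.85% (2.04 to 3.98%), 2.41% and 2.14%. Beyond 100 kb lay 30.6% of shared, 33.0% of MyoD-only and 36.4% of Myogenin-only sites. The greater distance of Myogenin sites remained at equal length, where their median was 54341 bp. The median of shared sites there was 47684 bp, level with that of the MyoD list.

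**Figure D4:**
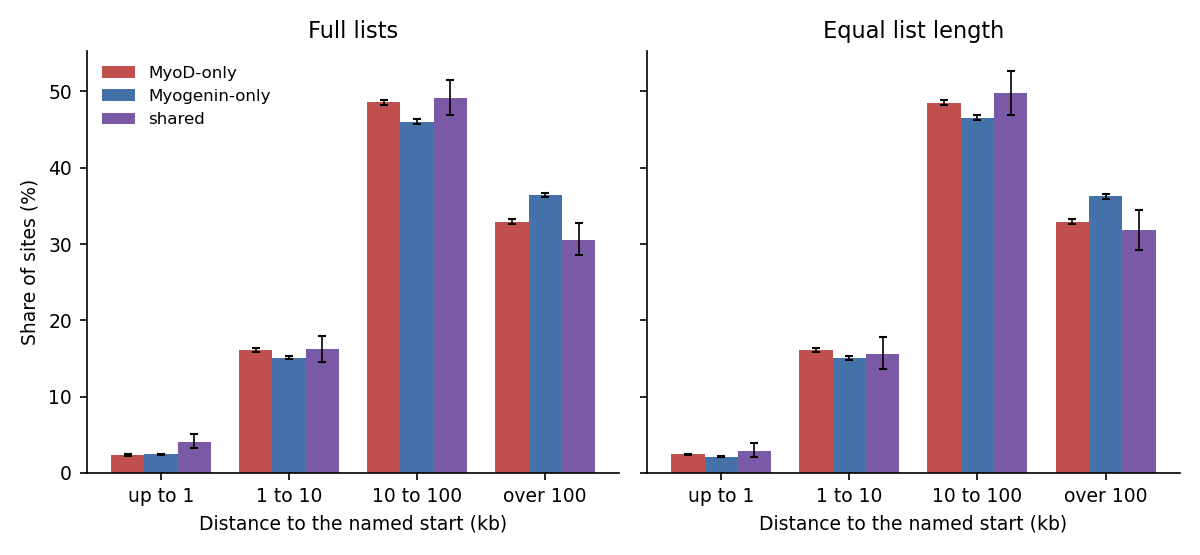
Share of MyoD-only, Myogenin-only and shared sites in 4 ranges of distance to the start of the named gene, in the full lists (left) and at equal length (right), with 95% Wilson intervals. Within 1 kb the shared sites stand at 4.05% in the full lists and 2.85% at equal length, and beyond 100 kb Myogenin-only sites stand highest at 36.4%.

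Repeats made up 37.6% of MyoD and 37.7% of Myogenin sites, but of different kinds. LINE elements held 14.8% of Myogenin sites and 12.2% of MyoD sites. SINE elements held 10.8% of MyoD sites and 9.17% of Myogenin sites, and LTR elements 11.1% and 9.71%. At equal length the Myogenin shares were 13.6% LINE, 8.83% SINE and 10.3% LTR, so each kept its direction. Simple repeats did not: they held 1.78% of Myogenin and 1.20% of MyoD sites in the full lists, but 0.993% and 1.20% at equal length. Low-complexity stretches turned likewise, from 0.498% against 0.359% to 0.317% against 0.359%. The sum over all repeats at equal length was 36.0% for Myogenin (35.6 to 36.3%), below the 37.6% of MyoD.

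Shared sites also coincided more often with the control peaks of TDP-43 and Pol II S2P. Of them, 85 (4.59%, interval 3.73 to 5.64%) met a peak of TDP-43 or Pol II S2P in any of the 4 control lists, against 1.63% of MyoD-only (1.54 to 1.72%) and 2.02% of Myogenin-only sites (1.94 to 2.10%). For Pol II S2P alone the shares were 1.40%, 0.434% and 0.519%, and for TDP-43 replicate 1 they were 3.46%, 1.08% and 1.35%. Without every site met by these lists, 2.49% of MyoD sites were shared and 2.04% of the shared sites lay at promoters. After Myolinc knockdown the MyoD list met 2.75% of shared and 1.75% of MyoD-only sites, and the Myogenin list 0.378% of shared and 0.354% of Myogenin-only sites. Those knockdown lists held 109522 and 20441 sites with a median width of 75 bp, against 231 and 219 bp in the control lists. The part of list size and peak width in these shares was not tested. The knockdown list of Pol II S2P, with 116064 sites, met 3.02% of shared sites (2.34 to 3.91%), 2.91% of MyoD-only and 2.49% of Myogenin-only sites, and the intervals of shared and factor-only sites overlapped.

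Genes were then compared by the name the authors' annotation gave each site. The transcript behind a promoter call was not compared with the gene named for the site, and a neighbour's promoter is possible. Among 21900 protein-coding genes, 879 (4.01%) had a MyoD promoter site, 1415 (6.46%) a Myogenin promoter site and 86 (0.393%) both. The 86 were 9.78% of the MyoD genes and 6.08% of the Myogenin genes. At 36 of the 86 the peaks overlapped, so at the other 50 the promoter had separate sites. Within 10 kb of the start, 8671 genes (39.6%) had a MyoD site, 11413 (52.1%) a Myogenin site and 5379 (24.6%) both. With equal lists these became 8155 (37.2%) for Myogenin and 3894 (17.8%) for both. A shared site at any distance was named for 1360 genes (6.21%). Across genes, the number of MyoD sites and of Myogenin sites per gene had a Spearman rho of 0.721, but both also went with gene length (0.481 and 0.491). Genes are not independent replicates, and these correlations describe 2 libraries. Cdh6 (a cadherin), Efna5 (an ephrin) and Sorcs3 (a sorting receptor of neurons) had the most shared sites, 4 each, among 70, 47 and 57 MyoD sites and 119, 64 and 78 Myogenin sites.

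The 10 best promoters with a site of both factors were Lce3a, Cd5, Kctd19, Patz1, Yipf6, Elmsan1 (Mideas in RefSeq), Ogdh, Lamtor2, Ppp1r12b and Psat1. Their MyoD sites held 9 to 14 tags and their Myogenin sites 18 to 30. The peaks overlapped at 4 of them, Lce3a (a skin envelope protein), Patz1 (a zinc-finger transcription factor), Elmsan1 and Lamtor2. At Ogdh (a subunit of the oxoglutarate dehydrogenase of the citric acid cycle) they lay at -839 bp (MyoD, 12 tags) and -115 bp (Myogenin, 19 tags). At Psat1 (serine synthesis) they lay at -2 bp (9 tags) and -205 bp (30 tags). Other shared promoters, picked after their values were seen, included Ctgf (a matrix-associated growth factor, 7 MyoD and 10 Myogenin tags), Rarg (a retinoic acid receptor, 12 and 7) and Rps23 (a ribosomal protein, 9 and 10).

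Promoters with a site of 1 factor only were led by other genes. For MyoD they were Olfr1300-ps1 (23 tags), Rars2 (21), Tmem107, Clec12a and Vmn2r100 (20 each), 1700034E13Rik, Apip, Tuba4a and Olfr113 (19 each) and Fer1l5 (18). For Myogenin they were Sh3tc1 (53, also met by a control list of TDP-43 or Pol II S2P), Serp2 (48), Tfg (47), Cacna2d1 (46), Nfatc2 (40), Slc6a9 and Pinx1 (39 each), Gpr62 and Gm20744 (38 each) and Tubb4b (37). Cacna2d1, the accessory subunit of the muscle calcium channel, was the member of the muscle lists among these 20.

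Promoter sites on the muscle structure list were close to the share of all genes. Of its 64 genes, which make up the contractile apparatus, 2 (3.13%) had a MyoD promoter site, 6 (9.38%) a Myogenin promoter site and 0 both, beside 4.01%, 6.46% and 0.393% of all protein-coding genes. The MyoD genes were Tnnt1, shown above (12 tags, interval 6.20 to 21.0, at -223 bp), and Mb, the oxygen store myoglobin (8 tags, at -921 bp). The Myogenin genes were Ttn (19 tags, 11.4 to 29.7), Myom1 (an M-band protein, 17), Mybpc2 (fast myosin-binding protein C, 16), Mybph (10), Actc1 (cardiac actin, expressed in early myotubes, 9) and Myl4 (the embryonic myosin light chain, 7). At equal length 3 of these 6 remained, where 3.54% of all protein-coding genes had a Myogenin promoter site and 0.205% both. Myh13, shown above, had a promoter site of both factors and is not on the list. Within 10 kb of the start, 29 members (45.3%) had a MyoD site, 38 (59.4%) a Myogenin site and 18 (28.1%) both, beside 39.6%, 52.1% and 24.6% of all protein-coding genes. With equal lists 26 members (40.6%) had a Myogenin site and 11 (17.2%) both, beside 37.2% and 17.8% of all protein-coding genes.

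Excitation-contraction coupling links the membrane signal to calcium release. Of its 29 genes, Kcnj2 and Ank1 had a MyoD promoter site, and Kcnj2, Cacna2d1 and Jsrp1 (a junctional protein of the sarcoplasmic reticulum) had a Myogenin one. Kcnj2 was the member with both. Its MyoD peak (111066052 to 111066282 on chromosome 11) held 7 tags (2.81 to 14.4) and its Myogenin peak (111066114 to 111066332) 19 tags, and a control list of TDP-43 or Pol II S2P also met them. Within 10 kb, 15 members (51.7%) had a MyoD site, 21 (72.4%) a Myogenin site and 10 (34.5%) both, beside 39.6%, 52.1% and 24.6% of all protein-coding genes. At equal length 15 had each (51.7%) and 7 both (24.1%), beside 39.6%, 37.2% and 17.8%. Among 18 genes of the acetylcholine receptor and synapse, Rapsn (the receptor-clustering protein rapsyn, 13 Myogenin tags) alone had a promoter site, which was lost at equal length. In that list 7 members (38.9%) had a MyoD site within 10 kb, 14 (77.8%) a Myogenin site and 5 (27.8%) both, and at equal length the last numbers were 10 (55.6%) and 4 (22.2%).

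Among 57 myogenic regulators, 1 (1.75%) had a MyoD promoter site, 7 (12.3%) a Myogenin promoter site and 0 both, beside 4.01%, 6.46% and 0.393% of all protein-coding genes. The MyoD gene was Filip1, a cytoskeletal regulator beside Myolinc (7 tags, 3 bp before the start). The Myogenin genes were Meox2 (a homeobox factor of somites, 31 tags), Zeb1 (an E-box-binding repressor, 18), Hdac4 (a deacetylase that represses Mef2 factors, 16), Tead4 (a Hippo pathway factor, 13), Myod1 itself (9), Mymk (the fusion protein myomaker, 9) and Tcf3 (the E protein partner, 9). At equal length Meox2, Zeb1 and Hdac4 kept this site and the others lost it, beside 3.54% of all protein-coding genes with one. A control list of TDP-43 or Pol II S2P also met the Tead4 and Myod1 sites. Within 10 kb, 23 members (40.4%) had a MyoD site, 40 (70.2%) a Myogenin site and 16 (28.1%) both, beside 39.6%, 52.1% and 24.6% of all. At equal length 28 (49.1%) had a Myogenin site and 14 both, beside 37.2% and 17.8% of all protein-coding genes. Of 16 genes of cell cycle exit, Rb1 (8 tags) and Gadd45b (7 tags) had a Myogenin promoter site (12.5%) and 0 a MyoD one. Of 24 genes of muscle energy metabolism, Mb had a MyoD promoter site (4.17% of the list) and Ak1 (adenylate kinase, 20 tags), Pfkm (muscle phosphofructokinase, 16) and Fabp3 (a fatty acid carrier, 7) a Myogenin one (12.5%). Each of these counts is of 3 genes or fewer, and the Rb1, Gadd45b and Fabp3 sites were lost at equal length. The Fabp3 site was also met by a control list of TDP-43 or Pol II S2P. Within 10 kb, 11 metabolic genes (45.8%) had a MyoD site, 14 (58.3%) a Myogenin site and 7 (29.2%) both, beside 39.6%, 52.1% and 24.6% of all.

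Lists of other cell types gave shares of the same order, again beside 39.6% (MyoD) and 52.1% (Myogenin) of all protein-coding genes. Within 10 kb, 24 of 48 neuronal genes had a MyoD site and 34 (70.8%) a Myogenin site, and 19 of 32 hepatocyte genes (59.4%) had each. The neuronal genes are long, with a median of 65048 bp against 17146 bp for all protein-coding genes. Of 48 cell cycle genes 21 and 29 had such a site, of 78 ribosomal protein genes 26 and 35, and of 29 matrix and fibroblast genes 14 and 15. Of 1110 olfactory receptor genes, which serve smell in the nasal epithelium, 282 (25.4%) and 546 (49.2%) had one. At equal length the Myogenin counts were 27 neuronal (56.3%), 11 hepatocyte (34.4%), 17 cell cycle (35.4%), 23 ribosomal (29.5%), 12 matrix (41.4%) and 372 olfactory genes (33.5%). The share of all protein-coding genes there was 37.2%. For MyoD the shares of the muscle lists lay inside the range of these lists. For Myogenin the synapse list (77.8%) and the coupling list (72.4%) lay above the highest of them, the neuronal list (70.8%), in the full lists, and at equal length their 55.6% and 51.7% lay below its 56.3%.

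**Figure D5:**
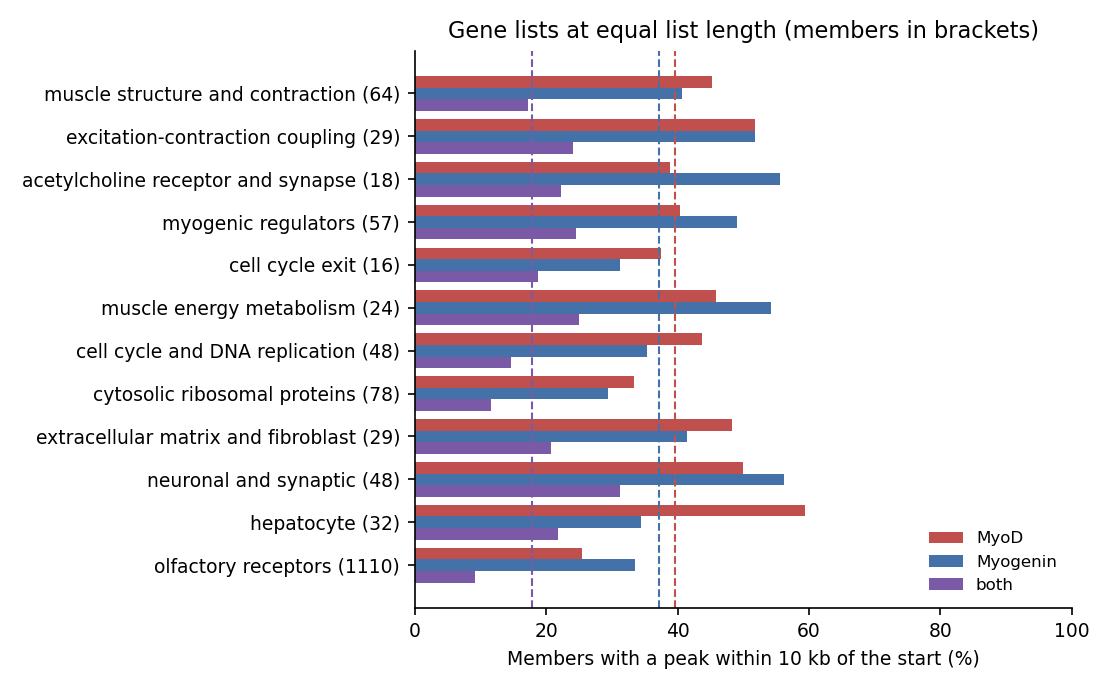
Share of the members of 12 gene lists with a MyoD site, a Myogenin site or both within 10 kb of the start, at equal list length, with dashed lines at the shares of all 21900 protein-coding genes (39.6%, 37.2% and 17.8%). Muscle structure genes stand at 45.3% for MyoD and 40.6% for Myogenin, and hepatocyte genes at 59.4% for MyoD.

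Shared sites named for genes of the muscle lists are set beside the 6.21% of all protein-coding genes that had 1 or more. Muscle structure had 3 among 64 members (4.69%), at Smyd1 (a myosin-assembly methyltransferase, 10 MyoD and 9 Myogenin tags, 20235 bp from the start), Nrap (an actin-anchoring protein, 10 and 12 tags, in an intron) and Myom2 (9 and 15 tags, between genes). The regulators had 3 among 57 (5.26%), at Six2 (a homeobox factor, 17 and 15 tags, a 3′ UTR), Klhl31 (9 and 21 tags) and Cdh15 (M-cadherin of muscle precursors). At Cdh15 the MyoD peak lay at 122886985 to 122887215 on chromosome 8 with 10 tags and the Myogenin peak at 122886997 to 122887215 with 16, 38726 bp from the named start. Coupling genes had 3 among 29 (10.3%), at Kcnj2, Stim1 (a calcium sensor, 6 and 9 tags, near the start) and Cacna2d1 (6 and 16 tags, 210910 bp from the start). Ncam1 had 1 in the synapse list of 18 (5.56%), and metabolism and cell cycle exit had 0. In the lists of other cell types, 3 of 32 hepatocyte genes (9.38%), 6 of 48 neuronal genes (12.5%) and 4 of 29 matrix genes (13.8%) had 1 or more. So did 3 of 78 ribosomal protein genes (3.85%), 1 of 48 cell cycle genes (2.08%) and 13 of 1110 olfactory receptor genes (1.17%).

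For 25 reference genes of myogenesis the nearest sites are given gene by gene. At least 1 site was named for 17 of them in the MyoD list, for 22 in the Myogenin list and for 15 in both, beside 64.9%, 73.2% and 57.3% of all protein-coding genes. Within 10 kb the numbers were 9, 15 and 6, beside 39.6%, 52.1% and 24.6% of all. Cdh15 was the reference gene with a shared site. At the loci of the factors themselves, the nearest Myogenin site to Myod1 lay 138 bp before the start (46376227 to 46376445 on chromosome 7, 9 tags, interval 4.12 to 17.1). It ranked 101841 in its list, and a control list of TDP-43 or Pol II S2P also met it. The nearest MyoD site to Myod1 lay at -29484 bp (13 tags). Myog had a MyoD site at -8091 bp (8 tags) and no Myogenin site named for it. Myf5 and Myf6 had sites of both factors, none within 10 kb.

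Structural genes had their sites at different places. Des, the intermediate filament desmin, had a Myogenin site in its intron at 1888 bp with 41 tags (29.4 to 55.6) and a MyoD site at 5248 bp with 9 tags (4.12 to 17.1). Ckm, muscle creatine kinase, had a Myogenin site at 430 bp (19 tags) and a MyoD site at 1912 bp (7 tags), both in introns and not overlapping. Both were annotated as repeats, the Myogenin site as a satellite and the MyoD site as an LTR element. Mymk had a Myogenin site at 89 bp (9 tags) and a MyoD site at -1006 bp (8 tags). Acta1, skeletal actin, had a Myogenin site in an exon at 2062 bp (12 tags) and a MyoD site in a SINE element at -6562 bp (9 tags). A control list of TDP-43 or Pol II S2P also met that Myogenin site. Like 3480 of all 21900 protein-coding genes, Actc1, Chrna1, Tnni1, Myh3, Cdkn1a, Id1 and Tardbp had a Myogenin site and no MyoD site. Myh3, the embryonic myosin heavy chain, had its nearest Myogenin site at -6044 bp with 29 tags. Chrng, the embryonic acetylcholine receptor subunit, had a MyoD site at 3357 bp (9 tags) and no Myogenin site, and Chrnd had neither. Mef2c, a partner factor in muscle transcription, had 17 MyoD and 41 Myogenin sites, the nearest at 24795 bp and 14492 bp.

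The E-boxes CAGCTG and CAGGTG in promoter windows did not separate the sets. Windows of 300 bp (250 before the start and 50 after it) were read from RefSeq on both strands for 17492 protein-coding genes, 21263 windows in all. CAGCTG was in 15.6% of all windows, in 14.8% of the 440 met by a MyoD peak (interval 11.8 to 18.4%) and in 17.1% of the 729 met by a Myogenin peak (14.6 to 20.1%). CAGGTG was in 19.7%, 20.0% (16.5 to 24.0%) and 18.7% (16.0 to 21.6%). Either word was in 31.9%, 31.6% and 32.5%, and in 9 of the 25 windows met by both peaks (36.0%, 20.2 to 55.5%). CACGTG, an E-box of other factors such as Myc and Usf1, was in 7.84% of all windows, 9.77% of MyoD windows (7.34 to 12.9%), 10.6% of Myogenin windows (8.53 to 13.0%) and 5 of the 25 (20.0%, 8.86 to 39.1%). The Myogenin interval for CACGTG and that of the 25 windows lay above the share of all windows, and the MyoD interval took it in. CATATG was in 3.19% of all windows, 1.59% of MyoD windows and 2.06% of Myogenin windows. A match is a string of letters and not a shown binding site, and sites away from promoters were not read for want of a genome sequence here.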

How the data were processed

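The comparison used the control MyoD and Myogenin libraries, 1 each, with the other lists of the series as a reference. The authors called peaks against IgG and annotated them with HOMER on mm10, per the file headers and the submitters' notes. HOMER's version, the aligner and the settings were not given in the sources used here. The deposited Peak Score is a normalised signal per peak, and it served to rank sites inside a list. The Focus Ratio, a deposited fraction, had a median of 0.889 (MyoD) and 0.938 (Myogenin), and served as a description. The Distance to TSS was used as the authors gave it. Mitochondrial peaks (6 MyoD, 0 Myogenin) were left out.

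Overlap was computed in Python 3.11.15 (pandas 2.3.3, numpy 2.4.6, scipy 1.17.1), and checked on simulated lists. Scores were divided by the step that makes those outside the highest 1% whole within a rounding of 0.05. At equal length the best 71878 sites by score were kept. Of 20527 gene identifiers named, 20474 matched the RefSeq table. No test across libraries was made. The members, the 12 gene lists and the rule for named genes were chosen with earlier results of these data known. That rule took the nearest sites of 25 reference genes, promoter sites of the muscle lists, the 10 best promoters of each class, the 10 best shared and the 5 best factor-only sites. Alternatives changed list length, ties, overlap, repeats, the score limit and the promoter definition, or kept the mitochondrial peaks. Another 1 (leaving out sites met by other antibodies) was added after seeing the data.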

Additional observations from a re-analysis of the deposited data

Results flagged for a closer look

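The control MyoD list held 6 peaks on the mitochondrial genome, which the comparisons leave out, and the control Myogenin list held 0. The 6 peaks carried 443 to 675 tags each, 3277 in sum, whereas the highest MyoD site elsewhere carried 80 tags. They were singled out because they are a signal outside the sites compared. Mitochondrial peaks carried no gene annotation. With these peaks kept, 2.58% of MyoD sites overlapped a Myogenin site and 1.41% of MyoD-only sites lay at promoters, the same as without them. The origin of these peaks was not tested.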

How the results depend on the processing

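Of 72 values recomputed under another setting, 40 stayed within their counting interval (for counts of genes, within 1.5 times) and 32 did not. The share of MyoD sites overlapping a Myogenin site was 2.58% as reported, 1.61% at equal length, 1.58% when tied sites were dropped whole, 1.40% when 50% of the shorter peak had to be covered, 1.50% with sites at or above the median score, 2.31% without repeats and 11.9% with peaks extended by 500 bp. The share of Myogenin sites was 1.61%, and 0.877%, 1.05%, 1.45% and 7.56% with the 50% overlap, the median score, no repeats and the extension. Promoter shares of shared, MyoD-only and Myogenin-only sites were 4.15%, 2.25% and 2.29% without repeats, and 4.05%, 2.37% and 2.44% with promoters taken as within 1000 bp. The Myogenin-only promoter share was also 1.26% at equal length, 1.26% with whole ties, 1.25% at or above the median score and 1.34% without sites met by other antibodies. Median distances were 44904 bp (MyoD) and 50457 bp (Myogenin) without repeats, and 48481 bp and 55480 bp without sites met by other antibodies. The 86 genes with a promoter site of both factors became 45 at equal length, 45 with whole ties, 30 at or above the median score and 215 within 1000 bp. Muscle structure genes with a MyoD promoter site became 4 within 1000 bp, and those with a Myogenin promoter site became 3 at equal length, with whole ties and at or above the median score. The cause of these changes was not tested, beyond the fewer sites that the shorter lists hold. No paired analysis was possible because each factor had 1 library and no test across libraries was made. Most sites rest on few tags, which limits what the absence of a site from a list shows.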
